A study of Mus musculus with 6 samples.

Results

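Interferon-stimulated and RNA-sensing genes were examined in mouse C2C12 myotubes whose Senp7 had been targeted by siRNA. The 39 genes were taken by name from the 55401 genes of the deposited table. They comprise 21 interferon-induced effectors, 6 RNA sensors and their adaptor, 4 receptor and kinase genes, 6 transcription factors and 2 chemokines. C2C12 is an established mouse myoblast line that fuses into multinucleated myotubes in low-serum medium. One group of 3 cultures received an siRNA targeting SENP7, an enzyme that cleaves the small modifier SUMO off other proteins, and the other group of 3 received the GL2 control siRNA, directed against firefly luciferase. Both groups were of the same line, grew in medium with 2% horse serum, and carried 100 pmol of a synthetic duplex RNA for 3 days. No culture without siRNA was analysed here. The submitters describe the 3 cultures of a group as biological replicates.

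Interferons are secreted proteins that cells release when they detect viral nucleic acid. Inside the cell, helicase-type sensors of the RIG-I family and the endosomal receptor TLR3 recognise double-stranded RNA, and the adaptor MAVS passes on the signal of the helicases to IRF3 and IRF7. Released type I interferon binds the receptor made of IFNAR1 and IFNAR2, whose kinases JAK1 and TYK2 activate STAT proteins. STAT2 with IRF9 acts at the interferon-stimulated response element (ISRE), while STAT dimers act at the gamma-activated site (GAS), and both elements are known from promoters of genes for antiviral effectors.

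Of the 39 genes, 6 rose in SENP7 siRNA myotubes and none fell. The 6 were the effectors Mx2, Gbp2, Xaf1 and Ifi35 and the transcription factors Irf1 and Stat2. Their rises ranged from a log2 fold change of 0.35 for Irf1 to 1.61 for Mx2. All 39 genes had at least 1 read, 32 met the minimum of a normalized count of 10 in at least 3 libraries, and 26 of those tested did not pass. None of the 32 met the minimum through 1 group alone. Calls were made with limma at an adjusted p of 0.05 over 14668 genes. Over all genes tested, 20.9% were called in either direction, 10.2% higher and 10.7% lower. The 6 of 32 called in either direction were thus a share near that of genes in general, and the calls among these genes lay on the higher side. The log2 fold change was above 0 for 24 of the 32 and below 0 for 8, with a median of 0.14, beside -0.0025 over all genes tested.

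The promoters of the 5 risen genes with a RefSeq promoter window are shown first, together with those of Isg15 and Ifit3, effectors that did not pass the test but hold several copies of an interferon motif. Each window runs from 250 bases before the RefSeq start site to 50 after it, on GRCm38.p6, and is written 5′ to 3′ on the gene's strand. Capitals mark matches to the ISRE core, which is GAAA, any 2 bases and GAAA again, or to the GAS motif TTCNNNGAA. Both strands were searched, so that an ISRE core on the other strand reads TTTC, any 2 bases and TTTC. Gbp2 (chr3:142620413-142620712, plus strand) and Stat2 (chr10:128270248-128270547, plus strand) held 1 ISRE core each.
Gbp2: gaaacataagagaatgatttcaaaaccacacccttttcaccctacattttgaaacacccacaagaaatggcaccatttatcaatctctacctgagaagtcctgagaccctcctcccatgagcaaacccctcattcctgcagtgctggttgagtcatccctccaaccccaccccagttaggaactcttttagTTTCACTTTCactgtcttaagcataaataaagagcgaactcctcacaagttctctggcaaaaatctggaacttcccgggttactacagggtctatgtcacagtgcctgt
Stat2: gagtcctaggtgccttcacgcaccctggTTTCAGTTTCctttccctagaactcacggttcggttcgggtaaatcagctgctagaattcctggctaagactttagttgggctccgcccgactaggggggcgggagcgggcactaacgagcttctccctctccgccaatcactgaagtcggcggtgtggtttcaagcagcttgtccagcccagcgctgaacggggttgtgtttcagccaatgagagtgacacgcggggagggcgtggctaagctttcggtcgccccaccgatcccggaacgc
Irf1 (chr11:53769764-53770063, plus strand, the one of its 2 windows that held a match) and Ifi35 (chr11:101448162-101448461, plus strand) held 1 GAS motif each and no ISRE core, and Xaf1 (chr11:72301379-72301678, plus strand) held neither.
Irf1: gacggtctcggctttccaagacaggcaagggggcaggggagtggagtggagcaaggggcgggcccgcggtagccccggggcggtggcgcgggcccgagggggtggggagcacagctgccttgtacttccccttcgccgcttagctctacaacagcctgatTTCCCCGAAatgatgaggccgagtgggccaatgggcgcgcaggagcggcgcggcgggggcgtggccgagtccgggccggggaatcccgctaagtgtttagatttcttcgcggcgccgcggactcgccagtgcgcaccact
Ifi35: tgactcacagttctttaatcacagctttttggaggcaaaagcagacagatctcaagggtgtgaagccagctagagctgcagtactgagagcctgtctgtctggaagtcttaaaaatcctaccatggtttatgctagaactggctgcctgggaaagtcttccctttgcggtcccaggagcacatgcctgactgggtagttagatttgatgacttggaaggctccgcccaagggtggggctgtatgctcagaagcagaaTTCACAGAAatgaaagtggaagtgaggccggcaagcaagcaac
Xaf1: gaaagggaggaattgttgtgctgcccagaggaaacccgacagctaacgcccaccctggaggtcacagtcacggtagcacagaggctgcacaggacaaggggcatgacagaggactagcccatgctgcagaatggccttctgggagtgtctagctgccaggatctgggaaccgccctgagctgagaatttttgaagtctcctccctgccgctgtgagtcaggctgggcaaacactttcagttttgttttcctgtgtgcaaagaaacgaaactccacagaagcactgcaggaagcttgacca
Isg15 (chr4:156200769-156201068, minus strand) held 3 overlapping ISRE cores, and Ifit3 (chr19:34583279-34583578, plus strand) held 2 separate ones.
Isg15: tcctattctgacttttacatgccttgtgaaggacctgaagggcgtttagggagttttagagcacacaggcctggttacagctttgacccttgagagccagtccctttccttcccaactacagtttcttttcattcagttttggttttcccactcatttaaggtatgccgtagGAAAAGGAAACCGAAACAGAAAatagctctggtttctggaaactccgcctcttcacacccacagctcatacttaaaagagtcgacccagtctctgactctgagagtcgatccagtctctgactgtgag
Ifit3: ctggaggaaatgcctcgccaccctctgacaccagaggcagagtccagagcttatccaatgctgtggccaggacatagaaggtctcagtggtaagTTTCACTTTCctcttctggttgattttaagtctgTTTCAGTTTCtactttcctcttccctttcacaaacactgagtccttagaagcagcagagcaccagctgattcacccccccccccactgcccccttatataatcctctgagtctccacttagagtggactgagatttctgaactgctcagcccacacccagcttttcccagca

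The ISRE core of Gbp2 began 59 bases upstream of the start site and that of Stat2 222 bases upstream. The GAS motif of Irf1 began 90 bases upstream, and that of Ifi35 began 7 bases downstream. The 3 cores of Isg15 began 78, 72 and 66 bases upstream and shared their GAAA ends. RefSeq windows were matched for 30 of the 39 genes, 34 windows in all. An ISRE core stood in 14 of the 34 windows, or 41.2%, beside 3.44% of all 32851 promoter windows. A GAS motif stood in 9 windows, or 26.5%, beside 8.3% of all windows. The 2 motifs overlapped in Bst2, where the GAS motif began 136 bases upstream and the first ISRE core 130 bases upstream. Among the 12 tested genes with an ISRE core, 2 rose and the median log2 fold change was 0.45 (from -0.08 to 0.79). Among the 15 tested genes with a window but no ISRE core, 3 rose and the median was 0.07 (from -0.24 to 0.81). Over all genes tested, 10.2% were called higher. The groups differ in role, with all 4 receptor and kinase genes among those without a core. The tested effectors with a core had 0.79 (Gbp2), 0.68 (Isg15), 0.64 (Gbp3), 0.47 (Bst2), 0.45 (Ifit1), 0.44 (Ifit3) and -0.08 (Eif2ak2). Those with a window but no core had 0.81 (Oasl2), 0.54 (Xaf1), 0.52 (Ifi35) and -0.24 (Ifit2). The difference between genes with and without a core was not tested, and a match describes letters in a window and not binding.

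**Figure D1:**
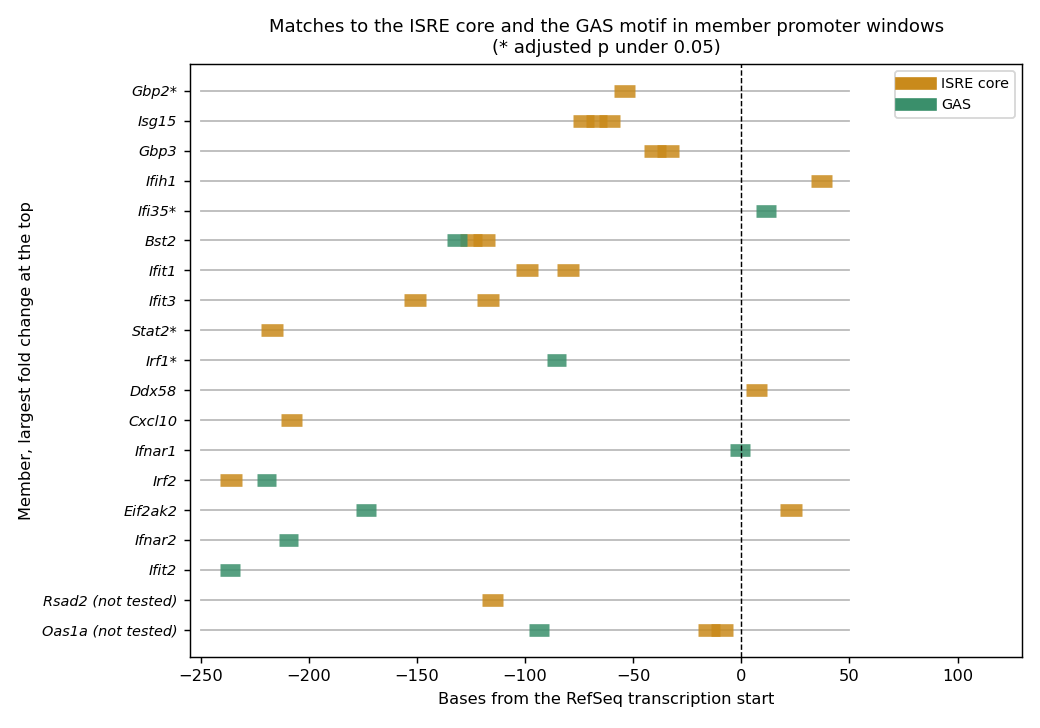
Matches to the ISRE core (orange) and the GAS motif (green) along the promoter windows of the genes with a match, placed by bases from the RefSeq transcription start (dashed line at 0) and ordered by log2 fold change, with an asterisk for genes that rose. Gbp2 and Stat2 are the risen genes with an ISRE core, 59 and 222 bases upstream, and no tested gene with several cores passed in the main fit. Oas1a, with 2 cores, was not tested, and Mx2 had no window.

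The libraries held 25434880 to 30865945 reads assigned to genes in SENP7 siRNA myotubes and 25223218 to 27763538 in control siRNA myotubes. The siRNA target Senp7 had normalized counts of 275, 279 and 347 in SENP7 siRNA libraries 1 to 3, against 556, 616 and 649 in control siRNA libraries 1 to 3, a log2 fold change of -1.02 ± 0.11 (SE). All 7 myotube markers were expressed and 2, Ckm and Mymk, rose, with summed normalized counts of 560000 to 640700 in SENP7 siRNA and 517000 to 533400 in control siRNA libraries. Of 5 myoblast or reserve cell markers, Pax7 and Id3 rose and Cd34 and Spry1 fell, and their sum was 4046 to 4841 in SENP7 siRNA and 4544 to 4696 in control siRNA libraries. Immune cell markers summed to 59.9 to 72 in SENP7 siRNA and 63.5 to 70.1 in control siRNA libraries, with Adgre1 at 0 reads throughout. Endothelial markers summed to 20.8 to 25.7 in SENP7 siRNA and 10.01 to 17.5 in control siRNA libraries. Itgam among the 8 immune and Tek among the 4 endothelial markers passed as rises, but each met the minimum through the SENP7 siRNA group alone, and 68.7% of the exon bases of Itgam are shared with the predicted gene Gm49368. Mitochondrial mRNA made up 3.25% to 3.32% of reads in SENP7 siRNA and 2.41% to 2.54% in control siRNA libraries, and ribosomal RNA genes 0.249% to 0.255% in SENP7 siRNA and 0.168% to 0.193% in control siRNA libraries. None of 5 proliferating cell markers passed, and their sum was 5022 to 6588 in SENP7 siRNA and 5670 to 7758 in control siRNA libraries. The mitochondrial and ribosomal RNA shares and the myotube and endothelial sums did not overlap between the groups. The immune, myoblast or reserve cell and proliferating cell sums overlapped. The part of these shares and markers in the results below was not tested. SENP7 siRNA libraries 1 and 2 were closest to each other: their chi-square averaged 1.71 over the genes, where other pairs within a group averaged 7.44 to 37.3. That is above sampling noise, and each was counted as a library. In bulk RNA, fewer cells of a type and less RNA per cell cannot be told apart.

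Transcripts of interferons themselves were almost absent. Of 20 interferon ligand genes, 18 had no read in any library and none met the minimum for a test. A count of 0 allows up to 3 reads in a library (counting error only), so that very low transcription was not detectable at this depth. Ifng, the type II interferon gene, had 5 reads over the SENP7 siRNA libraries and 3 over the control siRNA libraries. Ifne, a type I interferon of epithelia, had 0 reads over the SENP7 siRNA libraries and 4 over the control siRNA libraries.

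The receptor and kinase genes were among the most abundant of the set and changed little. Levels compared between genes are normalized counts per kilobase of exon, and changes within a gene are on the log2(normalized count + 1) scale. Jak1, the kinase shared by many cytokine receptors, was the highest of the 39 genes, at 538 per kilobase in SENP7 siRNA and 566 in control siRNA myotubes. Its normalized counts were 3863, 3795 and 4009.9 in SENP7 siRNA libraries 1 to 3, against 4112, 4119 and 4042 in control siRNA libraries 1 to 3. The groups did not overlap, but the log2 fold change of -0.07 did not pass (95% interval -0.19 to 0.05, limma adjusted p = 0.370). Ifnar1, the receptor chain that binds TYK2, had 1599, 1702 and 1681.5 in SENP7 siRNA and 1678, 1699 and 1819.9 in control siRNA libraries. Its groups overlapped, with a log2 fold change of -0.06 (95% interval -0.19 to 0.07). Ifnar2, the ligand-binding chain, had 488, 459 and 446 in SENP7 siRNA and 559, 495 and 475 in control siRNA libraries. Its groups overlapped too, and the log2 fold change was -0.13 (95% interval -0.32 to 0.06). Tyk2, the kinase of IFNAR1, had 1495, 1442 and 1589.6 in SENP7 siRNA and 1356, 1428.5 and 1533 in control siRNA libraries, again overlapping, with a log2 fold change of 0.07 (95% interval -0.08 to 0.22). Of these 4 genes, no interval reached further in either direction than that of Ifnar2, to -0.32 on the log2 scale.

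Among the 6 transcription factor genes, Irf1 and Stat2 rose and 4 did not pass. Over all genes tested, 20.9% were called in either direction and 10.2% higher, and 6 genes are too few to compare with these shares. Irf1, a factor that interferon gamma is known to induce, had normalized counts of 1193, 1170.4 and 1239 in SENP7 siRNA libraries 1 to 3, against 1031, 931 and 867 in control siRNA libraries 1 to 3. Every SENP7 siRNA library lay above every control siRNA library. The means were 1201 ± 35 in SENP7 siRNA and 943 ± 82.8 in control siRNA myotubes (SD, n = 3 each), a log2 fold change of 0.35 ± 0.075 (SE, limma adjusted p = 0.0111). Stat2, the partner of IRF9 at the ISRE, had 1111, 1146 and 1239 in SENP7 siRNA libraries 1 to 3, against 746, 937 and 935 in control siRNA libraries 1 to 3. The groups were again apart, with control siRNA library 1 well below the other 2 controls. Its means were 1165 ± 66.3 in SENP7 siRNA and 872 ± 110 in control siRNA myotubes (SD, n = 3 each), a log2 fold change of 0.42 ± 0.096 (SE, limma adjusted p = 0.0150). The call of Irf1 was lost without control siRNA library 2 (limma adjusted p = 0.0536), and that of Stat2 without SENP7 siRNA library 2 (0.0518) or 3 (0.0567), while the log2 fold change stayed between 0.29 and 0.48 for both over 17 alternatives.

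Irf3, the constitutive factor downstream of MAVS, had 1164, 1205 and 1177.5 in SENP7 siRNA and 1148, 1072.5 and 1013 in control siRNA libraries. The groups did not overlap, and the log2 fold change of 0.14 ± 0.065 (SE) did not pass (limma adjusted p = 0.176). Irf9, which completes the STAT2 complex, had 337, 386 and 422.5 in SENP7 siRNA and 349.8, 369 and 391 in control siRNA libraries. Its groups overlapped fully, with a log2 fold change of 0.04. Irf7, the inducible amplifier of type I interferon, was low, with 45.2, 53.5 and 44.5 in SENP7 siRNA and 36.3, 50.1 and 48.6 in control siRNA libraries. Irf2, which competes with IRF1 for DNA sites, had 544, 565 and 518 in SENP7 siRNA and 564, 597 and 540 in control siRNA libraries, so neither of these 2 genes separated the groups.

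None of the 6 sensor and adaptor genes passed the test, and their median log2 fold change was 0.08. With 20.9% of all genes tested called in either direction, 6 genes are too few to compare with that share. Mavs, the mitochondrial adaptor, was the most abundant of them, at 265 normalized counts per kilobase in SENP7 siRNA and 250 in control siRNA myotubes, and its log2 fold change was 0.09. Trim25, a ubiquitin ligase of the RIG-I pathway, followed at 137 per kilobase in SENP7 siRNA and 148 in control siRNA myotubes, with a log2 fold change of -0.12 (95% interval -0.28 to 0.05). Ddx58, which encodes the sensor RIG-I, had a mean of 462 ± 46.3 in SENP7 siRNA and 436 ± 42.9 in control siRNA myotubes (SD, n = 3 each). Its groups overlapped, at a log2 fold change of 0.08. Ifih1, which encodes the sensor of long double-stranded RNA MDA5, had 39.9, 57.8 and 54.9 in SENP7 siRNA and 42.3, 55.6 and 13.6 in control siRNA libraries. Control siRNA library 3 stood far below the other 5, and the log2 fold change of 0.64 carried an SE of 0.445 and did not pass (limma adjusted p = 0.350). Without that library the groups overlapped as before and the log2 fold change was 0.05. Dhx58, the helicase LGP2 that modulates both sensors, and Tlr3, the endosomal receptor, had log2 fold changes of 0.14 and -0.20, and Tlr3 was lower in each SENP7 siRNA library than in any control siRNA library without passing (limma adjusted p = 0.372).

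The effectors held the largest rises. Of the 21 effector genes, 15 were tested, 4 rose, none fell and 11 did not pass, and their median log2 fold change was 0.47. Over all genes tested, 20.9% were called in either direction and 10.2% higher. The plot of every library shows their wide range of levels, with Ifi35 and Eif2ak2 near the top and Oas1a and Oas2 near the bottom.

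**Figure D2:**
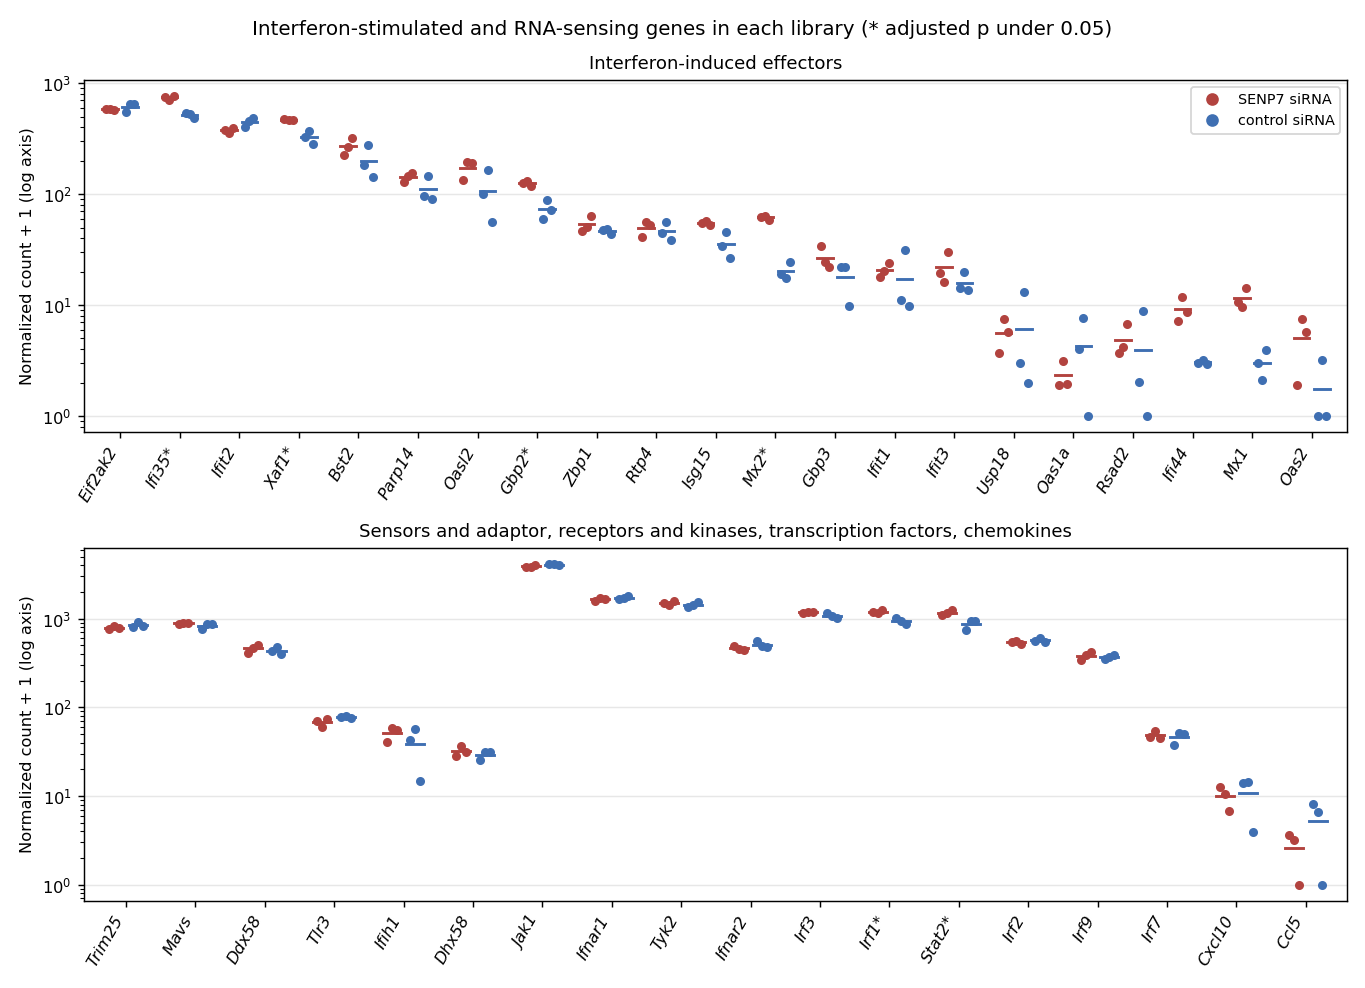
Normalized count + 1 of each of the 39 genes on a log axis, effectors above and the other roles below, with a point for each SENP7 siRNA (red) and control siRNA (blue) library, a bar for the group mean and an asterisk for an adjusted p under 0.05. Mx2 and Ifi35 show the widest separation for their spread, while the control siRNA points of Oasl2, Ifih1 and Ifit1 are widely spread and overlap the range of the SENP7 siRNA points.

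Mx2, of a family of dynamin-like antiviral GTPases, showed the largest rise of the set. It had normalized counts of 61.2, 63.1 and 57.8 in SENP7 siRNA libraries 1 to 3, against 18.1, 16.7 and 23.3 in control siRNA libraries 1 to 3. The log2 fold change was 1.61 ± 0.197 (SE, limma adjusted p = 0.000835), and the call held in all 16 alternatives in which the gene was tested. The gene (ENSMUSG00000023341.15) spans bases 97535308 to 97560900 of chromosome 16 in GRCm38.p6, plus strand, and is annotated as a polymorphic pseudogene, since laboratory strains are known to carry a defective copy, so a transcript level says nothing of a protein. Its paralog Mx1, too low for the test, had 33 reads over the SENP7 siRNA libraries and 6 over the control siRNA libraries. Scaled by library, that was 5.15-fold higher in SENP7 siRNA myotubes (exact 95% counting interval 2.13 to 15).

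Ifi35, a leucine-zipper protein induced by interferon, had 753, 707 and 769 in SENP7 siRNA libraries 1 to 3, against 541, 524 and 485 in control siRNA libraries 1 to 3. The groups were far apart for their spread, and the log2 fold change was 0.52 ± 0.073 (SE, limma adjusted p = 0.00160). At 430 normalized counts per kilobase in SENP7 siRNA and 299 in control siRNA myotubes it was the most abundant effector. The gene spans bases 101448407 to 101458698 of chromosome 11, plus strand. A predicted gene on the other strand, Gm11626, overlaps 16.8% of its exon bases, and the strand setting of the counting is not given in the sources used here, so some reads may belong to that gene.

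Xaf1, known as an antagonist of the apoptosis inhibitor XIAP, had 476, 463 and 463 in SENP7 siRNA libraries 1 to 3, against 323.5, 369 and 279 in control siRNA libraries 1 to 3. The SENP7 siRNA libraries were tight and the control siRNA libraries spread, with no overlap. The log2 fold change was 0.54 ± 0.106 (SE, limma adjusted p = 0.00811), past the threshold in all 17 alternatives, as was Ifi35. Gbp2, a guanylate-binding GTPase of cell-autonomous defence, had 124, 130.5 and 116.5 in SENP7 siRNA libraries 1 to 3, against 58.5, 86.8 and 71 in control siRNA libraries 1 to 3. Every SENP7 siRNA library exceeded every control siRNA library. The log2 fold change was 0.79 ± 0.164 (SE, limma adjusted p = 0.0103), and the call was lost without SENP7 siRNA library 2 (0.0504). Xaf1 spans bases 72301629 to 72313733 of chromosome 11 and Gbp2 bases 142620602 to 142638008 of chromosome 3, both on the plus strand. Gbp2 belongs to a cluster of similar genes, among which reads may be split.

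Several further effectors had fold changes of similar size without passing, and their control siRNA libraries were spread. Isg15, a ubiquitin-like modifier, had 54.1, 56.7 and 52.1 in SENP7 siRNA libraries 1 to 3, against 33.3, 44.5 and 25.3 in control siRNA libraries 1 to 3. The groups did not overlap, and the log2 fold change of 0.68 ± 0.222 (SE) missed the threshold (limma adjusted p = 0.0596). It passed when replicate numbers were used as blocks (0.0322) and without control siRNA library 2 (0.0378), and the adjusted p ranged from 0.0322 to 0.166 over 16 alternatives. Oasl2, of the oligoadenylate synthetase-like family, had 132, 194 and 189 in SENP7 siRNA and 98.8, 162 and 55.4 in control siRNA libraries. The control siRNA values were widely spread, control siRNA library 2 reached into the SENP7 siRNA range, and the log2 fold change of 0.81 ± 0.336 (SE) did not pass. Bst2, the surface protein tetherin that holds back budding virions, had 224, 263 and 318 in SENP7 siRNA and 180.4, 275 and 143 in control siRNA libraries. Here too control siRNA library 2 lay within the SENP7 siRNA range, with a log2 fold change of 0.47 ± 0.225 (SE). Without control siRNA library 2, Oasl2 (limma adjusted p = 0.0391), Bst2 (0.0443) and Parp14 (0.0423) passed as rises.

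Gbp3, a paralog of Gbp2, had 32.8, 23.5 and 20.8 in SENP7 siRNA and 21.2, 21.1 and 8.75 in control siRNA libraries, at a log2 fold change of 0.64 ± 0.359 (SE). The groups overlapped. Ifit1, which binds viral RNA lacking a self cap, had 16.9, 19.3 and 22.7 in SENP7 siRNA and 10.1, 30.0 and 8.75 in control siRNA libraries. Control siRNA library 2 was the highest of all 6 and library 3 the lowest. Its neighbour Ifit3 had a log2 fold change of 0.44 ± 0.309 (SE), while Ifit2, the most abundant of the 3 with 377 ± 20.6 in SENP7 siRNA and 447 ± 45 in control siRNA myotubes (SD, n = 3 each), went the other way at -0.24 ± 0.095 (SE, limma adjusted p = 0.108). Ifit2 was lower in each SENP7 siRNA library than in any control siRNA library, and it passed as a fall without control siRNA library 1 (0.0430). Parp14, a mono-ADP-ribosyltransferase, had a log2 fold change of 0.39 ± 0.19 (SE). Zbp1, a sensor of Z-form nucleic acid, Rtp4, a chaperone of cell-surface receptors, and Eif2ak2, the RNA-activated kinase PKR, had log2 fold changes of 0.18, 0.09 and -0.08, all with overlapping groups.

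**Figure D3:**
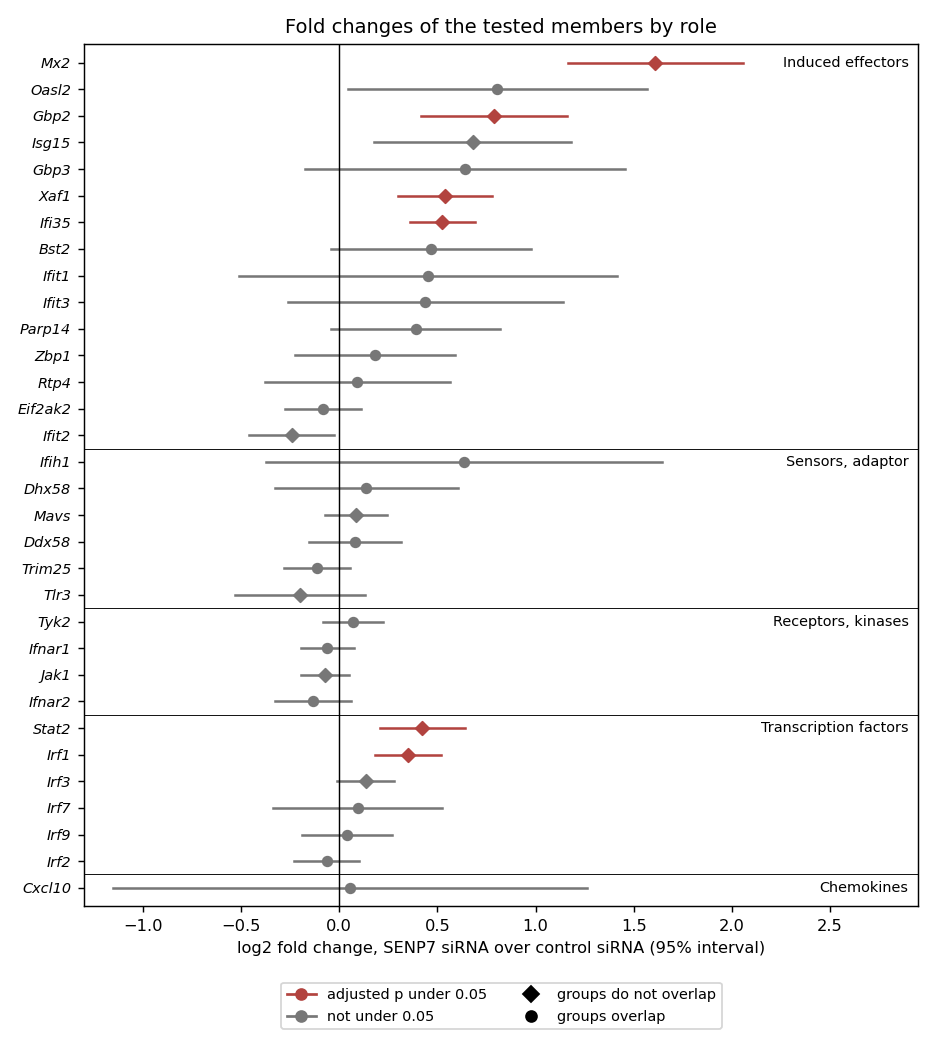
Log2 fold changes of SENP7 siRNA over control siRNA for the 32 tested genes, grouped by role, with 95% intervals from limma, red for an adjusted p under 0.05 and diamonds where the groups do not overlap. The effectors reach from -0.24 for Ifit2 to 1.61 for Mx2, and the 4 receptor and kinase genes lie between -0.13 and 0.07.

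Besides Mx1, 6 genes had too few reads for the test, and their ratios carry counting error only. Ifi44, an interferon-induced antiviral protein, had 25 reads over the SENP7 siRNA libraries and 6 over the control siRNA libraries, a ratio of 3.9 (exact 95% interval 1.56 to 11.6). Its normalized counts of 6.21, 10.7 and 7.58 in SENP7 siRNA libraries lay above the 2.02, 2.23 and 1.95 of the control siRNA libraries. Oas2, a synthetase of the second messenger that activates RNase L, had 12 reads over the SENP7 siRNA libraries and 2 over the control siRNA libraries (ratio 5.62, interval 1.25 to 51.7). Mx1 and Ifi44 separated the groups in every library, with normalized counts of 9.76, 8.56 and 13.3 for Mx1 in SENP7 siRNA against 2.02, 1.11 and 2.92 in control siRNA libraries, whereas Oas2 overlapped, at 0.887, 6.42 and 4.74 in SENP7 siRNA and 0, 2.23 and 0 in control siRNA libraries. With no minimum on counts, limma called Mx1 and Ifi44 as rises as well. The other 3 effectors overlapped as well. Rsad2, the antiviral enzyme viperin, had normalized counts of 2.66, 3.21 and 5.68 in SENP7 siRNA and 1.01, 7.79 and 0 in control siRNA libraries, from 12 reads over the SENP7 siRNA group and 8 over the control siRNA group. Usp18, which removes ISG15 from proteins and damps the receptor, had 2.66, 6.42 and 4.74 in SENP7 siRNA and 2.02, 12.2 and 0.973 in control siRNA libraries, with 14 reads in each group. Oas1a, another of the synthetases, had 0.887, 2.14 and 0.947 in SENP7 siRNA and 3.02, 6.68 and 0 in control siRNA libraries, from 4 reads over the SENP7 siRNA group and 9 over the control siRNA group. For these 3 genes control siRNA library 2 was the highest of all 6, and the exact intervals of the ratios all included 1.

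The 2 chemokine genes, whose proteins attract T cells, were near the limit of detection. Cxcl10 had 11.5, 9.63 and 5.68 in SENP7 siRNA and 13.1, 13.4 and 2.92 in control siRNA libraries. The groups overlapped, and the log2 fold change of 0.06 ± 0.534 (SE) changed sign under several settings. Ccl5 had 5 reads over the SENP7 siRNA libraries and 12 over the control siRNA libraries, a ratio of 0.39 (exact 95% interval 0.108 to 1.19). Its normalized counts were 2.66, 2.14 and 0 in SENP7 siRNA and 7.06, 5.56 and 0 in control siRNA libraries, with library 3 at 0 in both groups.

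The groups did not overlap for 12 of the 32 tested genes, 9 higher and 3 lower in SENP7 siRNA myotubes, where 39.6% of all genes tested did not overlap, 19.3% higher and 20.4% lower. The 9 were the 6 risen genes with Isg15, Irf3 and Mavs, of which Mavs was apart only by 878.38 in SENP7 siRNA library 1 against 878.36 in control siRNA library 3, and the 3 were Ifit2, Tlr3 and Jak1. In the authors' deposited table of DESeq2 results, 6 of these genes were called higher and 0 lower at an adjusted p of 0.05, and they were the same 6. Of its 27493 genes with an adjusted p, 9.26% were called in either direction and 4.45% were called higher in SENP7 siRNA myotubes. Those genes include some with hardly a read, such as Ifng at a mean normalized count of 1.33. The 14668 genes tested here had passed a minimum count, so the shares of the 2 analyses rest on unlike sets of genes. The fold changes in the authors' deposited table were smaller, at a log2 of 1.11 for Mx2, 0.64 for Gbp2, 0.50 for Ifi35, 0.49 for Xaf1, 0.39 for Stat2 and 0.33 for Irf1. DESeq2 run here on the recovered reads gave 1.64 for Mx2 and 0.525 for Ifi35. The reason for the smaller deposited values was not tested.

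Differences between the control siRNA libraries recurred over many effectors. Control siRNA library 2 was the highest control for 20 of the 32 tested genes and for 11 of the 15 effectors. Control siRNA library 3 was the lowest control for 20 of the 32 and for 11 of the 15 effectors, and it was the lowest of all 6 libraries for 16 of the 32. How often each library was highest or lowest over all genes tested was not counted. Control siRNA library 3 also stood apart over the genes in general. Its chi-square per gene averaged 37.3 against control siRNA library 1 and 22.3 against library 2, where libraries 1 and 2 averaged 7.44 against each other. The mean log2(normalized count + 1) over the 32 genes was 7.65, 7.71 and 7.74 in SENP7 siRNA libraries 1 to 3, and 7.40, 7.64 and 7.24 in control siRNA libraries 1 to 3. The control siRNA library that came nearest to the SENP7 siRNA libraries was thus library 2. The median SD of the 15 effectors on the log2 scale was 0.146 in SENP7 siRNA and 0.281 in control siRNA myotubes. Over all genes tested the median SD was 0.0889 in SENP7 siRNA and 0.132 in control siRNA myotubes, so the controls were the more variable group in general.

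**Figure D4:**
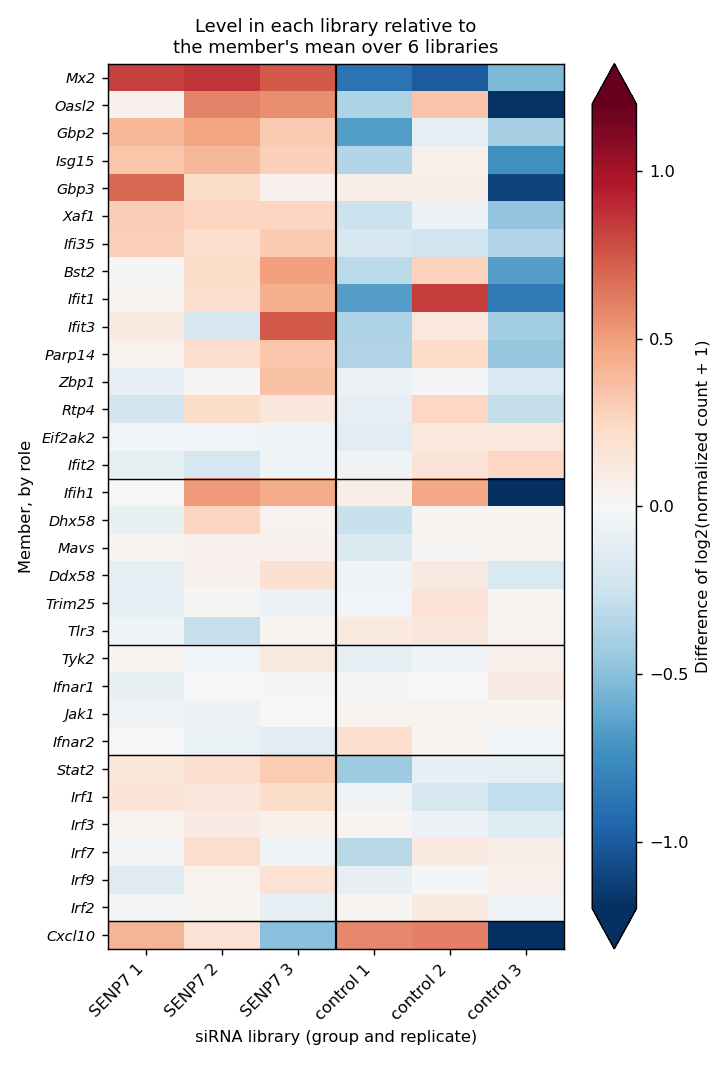
Difference of log2(normalized count + 1) in each library from the gene's mean over the 6 libraries, for the 32 tested genes in rows by role, with SENP7 siRNA libraries to the left of the line and control siRNA libraries to the right. Mx2, Gbp2, Xaf1, Ifi35, Stat2 and Irf1 are red in all 3 SENP7 siRNA libraries and blue in all 3 control siRNA libraries, while control siRNA library 2 is red for many effectors and library 3 is blue for most.

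A wider list held 101 other interferon pathway genes. Of these, 78 had a read and 59 were tested, of which 10 rose, 5 fell and 44 did not pass. The share called was near that of all genes tested, of which 20.9% were called in either direction, 10.2% higher and 10.7% lower. Their median log2 fold change was 0.02. Among the 36 tested of 54 other induced genes, 8 rose, 4 fell and the median was 0.10. Among the 23 tested of 27 other sensing and signalling genes, 2 rose, 1 fell and the median was -0.03.

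The largest rise was that of Ddx60, a helicase linked to RIG-I signalling. It had normalized counts of 49.7, 44.9 and 48.3 in SENP7 siRNA libraries 1 to 3, against 9.07, 21.1 and 7.78 in control siRNA libraries 1 to 3. The log2 fold change was 1.96 ± 0.342 (SE, limma adjusted p = 0.00463), with no overlap between the groups. Socs3, an inhibitor of cytokine receptor signalling through JAK kinases, was abundant, with 5015, 4696 and 6844 in SENP7 siRNA and 2081, 1579 and 2772 in control siRNA libraries. Its log2 fold change was 1.38 ± 0.199 (SE, limma adjusted p = 0.00188), and the call was lost with no minimum on counts (0.0566).

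The remaining named rises were of GTPase genes. Igtp, an immunity-related GTPase, had 202, 171 and 186 in SENP7 siRNA and 83.7, 95.7 and 79.8 in control siRNA libraries. Its SENP7 siRNA libraries were all well above the controls, and the log2 fold change was 1.10 ± 0.128 (SE, limma adjusted p = 0.000644). Its relative Irgm2, whose annotation overlaps 8.01% of the exon bases of Igtp on the same strand, had 91.4, 125 and 135.5 in SENP7 siRNA and 50.4, 90.1 and 40.9 in control siRNA libraries. The log2 fold change of Irgm2 was 1.01 ± 0.282 (SE). The guanylate-binding proteins Gbp9 and Gbp7 rose with log2 fold changes of 1.35 ± 0.304 and 0.92 ± 0.245 (SE). Gbp9 had 13.3, 19.3 and 19.9 in SENP7 siRNA and 7.06, 6.68 and 4.86 in control siRNA libraries, and met the minimum through the SENP7 siRNA group alone. Gbp7 had 28.4, 34.2 and 36.9 in SENP7 siRNA and 14.1, 22.3 and 15.6 in control siRNA libraries. Of the related genes in the list, Irgm1 had a log2 fold change of -0.19 and did not pass, and Iigp1, Ifi47, Tgtp1, Gbp4, Gbp5 and Gbp6 were too low for the test. Iigp1 had 50 reads over the SENP7 siRNA libraries and 16 over the control siRNA libraries, with overlapping groups. Its ratio was 2.93 (exact 95% counting interval 1.64 to 5.5). In the same order of groups, Gbp4 had 9 and 0 reads, Ifi47 13 and 9, Tgtp1 3 and 4, Gbp5 1 and 1, and Gbp6 none. The calls of Irgm2, Gbp7 and Gbp9 were each lost in at least 2 of the alternatives, with adjusted p-values of up to 0.116, 0.0990 and 0.0665. The other 4 genes that rose were Samhd1, Parp12, Parp10 and Ifngr2, with log2 fold changes between 0.31 and 0.41. The call of Parp10 was lost in 4 of 17 alternatives (adjusted p up to 0.116).

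The 5 genes that fell were abundant. Ifi204, of a family of DNA-binding induced proteins, had 532, 554 and 551 in SENP7 siRNA libraries 1 to 3, against 1119.8, 1011 and 681 in control siRNA libraries 1 to 3. The SENP7 siRNA libraries were tight and the controls widely spread, at a log2 fold change of -0.75 ± 0.158 (SE, limma adjusted p = 0.0110). Ifitm3, a membrane protein that restricts virus entry, had 2749, 2855 and 2938.5 in SENP7 siRNA and 4622, 4273 and 3507 in control siRNA libraries, at a log2 fold change of -0.53 ± 0.096 (SE, limma adjusted p = 0.00543). Its groups did not overlap. Its paralog Ifitm2 (-0.37 ± 0.098), the torsin ATPase gene Tor3a (-0.42 ± 0.072) and Unc93b1 (-0.29 ± 0.065), the chaperone of endosomal Toll-like receptors, fell as well. Ifitm2 shares 40.9% of its exon bases with the predicted gene Gm45717 on the same strand, and its call was lost in 5 of 17 alternatives (adjusted p up to 0.0948). The call of Ifi204 was lost without SENP7 siRNA library 1 (0.0502) or control siRNA library 2 (0.0642), and that of Unc93b1 without SENP7 siRNA library 1 or 2 or control siRNA library 2 (up to 0.0592).

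**Figure D5:**
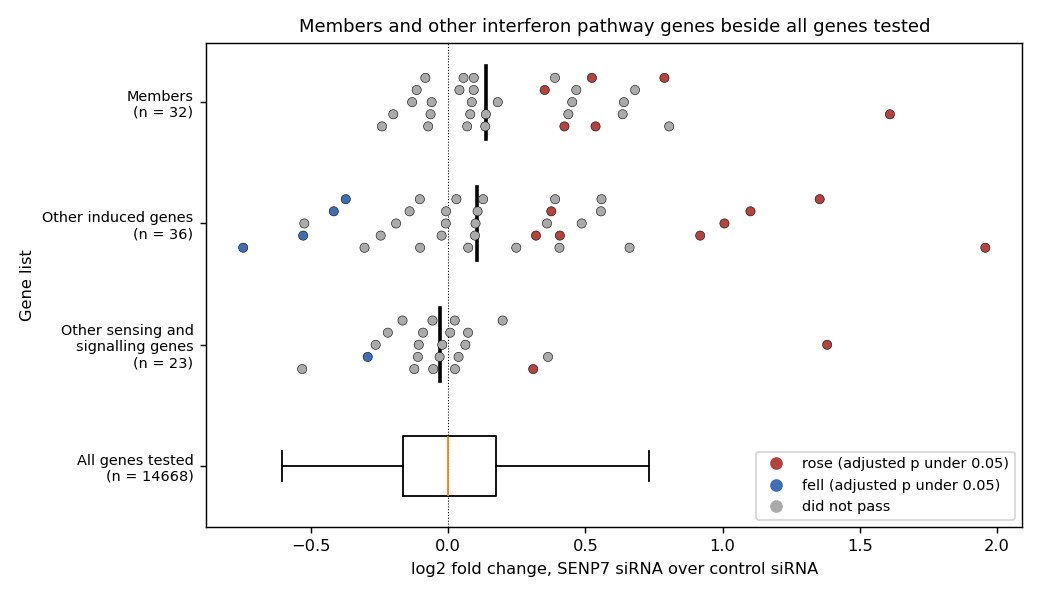
Log2 fold changes of SENP7 siRNA over control siRNA for the 32 tested genes of the set and 59 other tested pathway genes, as points coloured by call with a black bar at each list's median, above a box plot of all 14668 genes tested (box for the quartiles, line for the median, whiskers for the 5th to 95th percentile). The medians are 0.14 for the set, 0.10 for other induced genes and -0.03 for other sensing and signalling genes, and rises and falls stand side by side in the other induced genes.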

How the data were processed

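RNA-seq libraries were made from poly(A) RNA with a directional kit and sequenced in 1 pooled run, per the labels' protocols. The submitters' processing notes name STAR 2.6.1d and featureCounts 1.6.4, beside bcl2fastq, DESeq2 and Trim Galore 0.6.4, and the build GRCm38.p6. The deposited table gave a normalized signal per gene and library, in which the authors' read count appears divided by 1 factor per library, judging from the values. Per the file headers it also held the authors' log2 fold change, its standard error, a Wald score, a p-value and an adjusted p-value. Neither strand setting nor annotation release is given in the sources used here. Gene lengths and exon positions were those of the deposited table. Gene types and the exons of overlapping genes were read from GENCODE M21, in which 54349 of the 55401 identifiers were found, all at equal coordinates.

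The design provided for edgeR on raw counts and for limma-trend on normalized values, and limma-trend applied because the values were normalized. In R 4.3.3, limma 3.58.1 with a robust empirical Bayes step was run on log2(normalized count + 1), a scale that understates changes of low genes. A gene had to reach a normalized count of 10 in 3 or more libraries. Tests were two-sided, adjusted by Benjamini-Hochberg over 14668 genes, at a threshold of 0.05. Values were whole multiples of 1 step per library, within 0.1 read, for 100% of values, so reads were recovered for edgeR 4.0.16, DESeq2 1.42.0 and limma-voom as alternatives. edgeR's quasi-likelihood test called 1472 genes higher and 1580 lower. Other alternatives were scalings, minimums, pseudocounts, a threshold of 0.01, the replicate number as a block and each library left out. The procedure was tested on simulated data. Ratios of reads carry exact Clopper-Pearson intervals, which cover counting error only. Promoter windows are from RefSeq.

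The genes and the lists were chosen with earlier results of these data known. All genes of the set are accounted for by role, with the value in each library for those past the threshold, the 10 largest fold changes, the receptors, kinases and transcription factors, and the genes not tested. Of the 101 other pathway genes, up to 6 in each direction are named by size of change, and other names there were chosen after their values were seen.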

Additional observations from a re-analysis of the deposited data

How the results depend on the processing

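Each result was recomputed under up to 18 other settings. The set had 6 rises under TMM factors, quantile normalization, a mean of at least 10, either other pseudocount, edgeR, DESeq2 and limma-voom, and they were the same 6 genes. It had 8 rises with no minimum, where Mx1 and Ifi44 were added, and 5 with a mean of at least 50, under which Mx2 was not tested. All genes had 1573 rises and 1528 falls with no minimum, and 1223 rises and 1443 falls with a mean of at least 50. At a threshold of 0.01 the set had 3 rises, other pathway genes had 6 rises and 2 falls, and all genes had 718 rises and 680 falls in place of 1492 and 1570.

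With each library left out in turn, rises in the set ranged from 4 to 9 and falls from 0 to 1. Other pathway genes ranged from 6 to 10 rises and from 2 to 8 falls, and all genes from 805 to 2289 rises and from 754 to 2413 falls. The fewest rises in the set came without SENP7 siRNA library 2 and the most without control siRNA library 2. Fewer samples entered these fits. All genes had the most rises and falls, 2289 and 2413, without control siRNA library 3, against 1492 and 1570 in the main fit. What caused the changes was not tested.

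Cxcl10 changed sign to -0.15 with quantile normalization, -0.009 with a pseudocount of 5, -0.10 with edgeR and -0.12 with DESeq2, and ranged from -0.56 to 0.37 with a library left out. Over the same omissions Rtp4 ranged from -0.028 to 0.24, Irf7 from -0.051 to 0.18 and Irf9 from -0.035 to 0.13. The cause was not tested.

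The numbers of the replicates were shared by both groups. Deviations of same-numbered libraries correlated at 0.13, 0.06 and 0.25, and those of differently numbered libraries at -0.22 to 0.14. SENP7 siRNA library 2 correlated with control siRNA library 1 at 0.14 and with control siRNA library 2 at 0.06. These values do not settle whether the numbers pair the libraries, and the main fit used the group alone. With the replicate block the set had 7 rises (Isg15 was added), other pathway genes had 12 rises and 6 falls, and all genes had 2052 rises and 2123 falls. Low counts limit the chemokines and the 7 genes not tested. With 3 libraries per group, a gene that did not pass may still differ.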
